A study of Mus musculus with 30 samples.

Results

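The integrin and laminin gene families were read across 10 mouse tumour lines. They were taken by symbol from a TPM table (a transcript level scaled to transcript length and to the library's total, so that genes and libraries can be set side by side), as every row named for an integrin α or β subunit or a laminin chain. This gave 37 of the 55291 gene symbols, made up of 18 α integrins, 8 β integrins and 11 laminin chains. Among the 26 integrins, 8 are carried mainly by leukocytes (Itgal, Itgam, Itgax, Itgad, Itgae, Itga4, Itgb2 and Itgb7) and are given apart from the other 18. The 30 libraries came from tumours of MC38OVA, MC38, EMT6, LL2, CT26NYESO1, CT26, CMS5a, Renca, B16F10 and B16F1 cells, with 3 libraries a line. The series looked for tumour types suited to OK-432, a preparation of killed streptococci. The cells had been inoculated under the skin of BALB/cJ or C57BL/6J mice, and each tumour was harvested once it measured 10 mm. Injection of OK-432 into the tumour for 24 h, or its absence, is stated for the series without saying which libraries it concerns, and host strain, sex and age are not tied to a library either. All libraries carry the same label of CD45+ immune cells from the tumour. Nothing in the labels says that the 3 libraries of a line came from separate mice, so the p-values measure the spread between these libraries, which may be technical.

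As background, MC38 and CT26 are colon carcinoma lines, EMT6 a mammary and LL2 a lung carcinoma line, CMS5a a fibrosarcoma line, Renca a kidney carcinoma line, and B16F1 and B16F10 melanoma sublines. MC38OVA and CT26NYESO1 bear the name of a model antigen after that of another line of the set. Integrins are cell-surface receptors made of an α and a β subunit, and the pairing sets what the receptor binds. Laminins are trimers of an α, a β and a γ chain and form the sheet of the basement membrane, to which the laminin-binding integrins attach epithelial, muscle and endothelial cells. On leukocytes, Itgb2 pairs with Itgal, Itgam, Itgax or Itgad for adhesion to vessel walls and uptake of particles, Itgb7 pairs with Itga4 or Itgae, and Itga4 also pairs with Itgb1.

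The label was checked against markers of leukocytes and of other cells. The 9 leukocyte markers (Ptprc, which encodes CD45, with Cd53, Laptm5, Coro1a, Lcp1, Was, Ikzf1, Arhgdib and Cd52) were all at 1 TPM or more on average in every line, and their summed level ran from 1137 to 2549 TPM in MC38OVA libraries and from 135 to 392 TPM in B16F1 libraries. Ptprc itself was lowest in the melanoma lines, with no library over 8.35 TPM in B16F10 or 17.3 TPM in B16F1. Markers of other cell types were present too. The 5 melanocyte markers summed to 8784 to 12704 TPM in B16F10 libraries and 1644 to 6826 TPM in B16F1 libraries, against at most 1.63 TPM in any other library. The 6 epithelial markers summed to 1256 to 1974 TPM in Renca, 619 to 712 TPM in EMT6 and 176 to 315 TPM in LL2 libraries, and to at most 15.7 TPM elsewhere. Of these 6, 5 were at 1 TPM or more on average in Renca and in EMT6, but only 2 in LL2. The 6 fibroblast markers summed to 4358 to 5603 TPM in CMS5a libraries and 3291 to 4265 TPM in LL2 libraries, against 4.08 to 13.3 TPM in B16F10 libraries. The libraries therefore held RNA of cells other than leukocytes, and levels of integrins and laminins are given as levels of the whole sample. Fewer cells of a type and less RNA per cell cannot be told apart in such bulk samples. Mitochondrial transcripts took 9.17% to 39.0% of TPM, with B16F1 replicate 2 the highest.

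Itgam and Itgax, which encode myeloid partners of Itgb2, lie near each other on chromosome 7 and were highest in different lines, LL2 and MC38OVA. Their promoter sequences are shown because a purine-rich core, GAGGAA or its complement TTCCTC, is the kind of site bound by the myeloid factor PU.1. The sequences are the 250 bases before the RefSeq start on the plus strand (GRCm38.p6), at chr7:128062390-128062639 for Itgam and chr7:128129300-128129549 for Itgax, with matches in capitals.
Itgam: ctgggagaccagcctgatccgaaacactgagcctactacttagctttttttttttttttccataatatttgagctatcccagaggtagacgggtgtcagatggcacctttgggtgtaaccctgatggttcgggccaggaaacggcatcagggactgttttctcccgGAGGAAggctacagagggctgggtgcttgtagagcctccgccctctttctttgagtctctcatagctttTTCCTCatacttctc
Itgax: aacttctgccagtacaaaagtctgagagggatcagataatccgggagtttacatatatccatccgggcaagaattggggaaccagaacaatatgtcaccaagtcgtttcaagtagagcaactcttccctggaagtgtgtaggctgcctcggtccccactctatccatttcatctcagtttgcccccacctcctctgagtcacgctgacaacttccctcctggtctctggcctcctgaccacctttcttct
The Itgam sequence held 2 matches, starting 84 and 15 bases before the start, and the Itgax sequence held 0. The same motif was found in 7639 of 32851 promoters of that length (23.3%), in 1 of 4 leukocyte integrin promoters with a sequence and in 12 of 22 promoters of the other members. A match is a description of these letters and says nothing of binding.

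Of the 37 members, 32 reached 1 TPM in at least 3 libraries and were tested. The other 5 stayed low. Itgad, a further Itgb2 partner, averaged 0.858 TPM in MC38OVA and at most 1.07 TPM in any line, in MC38. Itga8 was highest in EMT6 (1.51 TPM) and Itga11, a collagen receptor subunit, in CMS5a (1.38 TPM). Lama1 did not pass 0.293 TPM and Lamc3 did not pass 0.627 TPM in any library. A gene was called where limma's adjusted p (Benjamini-Hochberg over all 17944 genes tested) was under 0.05 and the change was at least 1 on log2(TPM + 1), a scale that understates changes of low genes. All 32 tested members differed over the 10 lines by limma's F test, as did 85.5% of all genes tested. Of these members, Itgb6 passed the filter only through CMS5a, the line where it is high. Itgae lost this call under median-ratio scaling and without the filter. It also lost the call without any 1 of B16F10 replicate 1 or 2, CT26NYESO1 replicate 1 or Renca replicate 2 or 3. Itgav lost the call without any 1 of B16F1 replicate 1 or 3 or LL2 replicate 1.

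In each line, set against the mean of the other 9, the members moved in different numbers and directions. Shares of all genes called belong to this fit. Here and below, member counts at an unadjusted p or under another setting carry no such share, except where one is given. Such counts show only how the calls moved. In MC38OVA, 6 of 32 were higher, all of them leukocyte integrins, where 10.2% of all genes were called higher; 0 were lower by limma (3.59% of all genes), although 6 were lower at an unadjusted p under 0.05. MC38 had 1 higher and 2 lower, against 8.24% and 4.06% of all genes. EMT6 had 9 higher and 3 lower, against 10.2% and 4.7% of all genes, but 5 higher and 4 lower under median-ratio scaling and 2 higher and 4 lower with both B16 lines left out of the mean. LL2 had 12 higher, the highest number, and 2 lower, against 7.98% and 6.53%. CT26NYESO1 had 6 higher and 5 lower, against 6.84% and 5.71%, and 1 higher and 4 lower with the B16 lines left out. CT26 had 8 higher and 2 lower, against 8.25% and 4.91%. CMS5a had 3 higher and 2 lower, against 9.23% and 4.49%, and 4 higher and 7 lower with the B16 lines left out. Among its higher members, Itgb6 passed the filter only through the CMS5a libraries, so its call is a description. Renca had 8 higher and 4 lower, against 12.4% and 10.5%, and 9 higher and 8 lower with the B16 lines left out, where Itgal, Itgam, Itgb2 and Itgb7 were called lower and Lama4 higher. B16F10 had 2 higher and 17 lower, against 5.28% and 23.2%, and B16F1 had 1 higher and 9 lower, against 8.52% and 13.2%. The median log2 change in B16F10 was -1.20 over the 32 members and -0.48 over all genes tested. Scaling the libraries by median ratios raised that all-gene median by 0.26 and the share of higher calls over all genes in B16F10 to 36.2%, against 18.6% with TPM as deposited, and left 2 members higher and 15 lower.

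**Figure D1:**
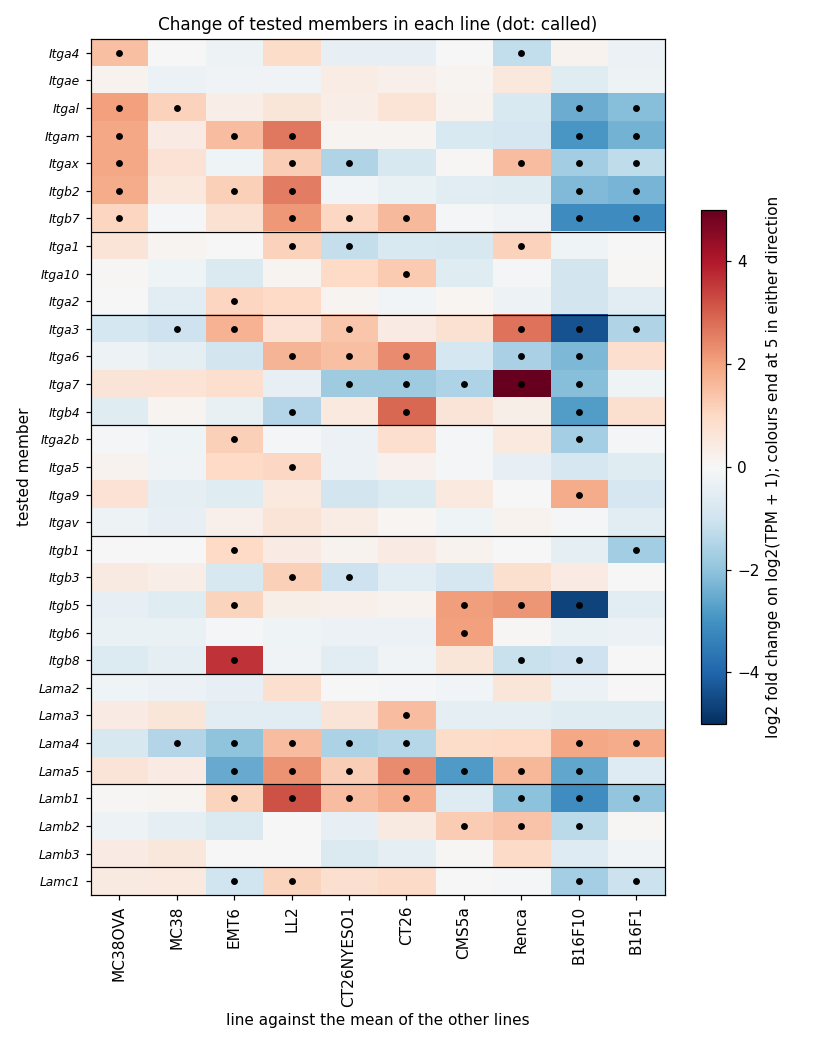
Log2 fold change, on log2(TPM + 1), of tested members (rows, grouped by role) in each line (columns) against the mean of the other 9 lines, with dots on called changes. Red marks higher and blue lower, and colours end at 5 in either direction; Itga7 in Renca reaches 5.70, and Itgb5 in B16F10 reaches -4.63.

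By line means, Itgam, Itgb2 and Itgb7 were at their highest level in LL2, and Itgal, Itgax and Itga4 in MC38OVA. Itgal, Itgam, Itgax and Itgb7 were at their lowest level in B16F10 and Itgb2 in B16F1, while Itga4 was lowest in Renca. Itgb2, the shared β subunit, had 327, 216 and 285 TPM in the LL2 libraries, against 5.86 to 219 TPM (median 50.6) in the other 27. One LL2 library lay within the range of the others. MC38OVA libraries held 117, 213 and 219 TPM of Itgb2 and EMT6 libraries 114, 141 and 99.6 TPM. The changes were 2.55 ± 0.31 in LL2 (SE, adjusted p = 1.5e-07), 1.85 ± 0.31 in MC38OVA (adjusted p = 1.9e-05) and 1.20 ± 0.31 in EMT6 (adjusted p = 0.0022). B16F10 libraries held 6.86, 11.8 and 26.5 TPM and B16F1 libraries 5.86, 23.8 and 12.2 TPM, changes of -2.21 ± 0.31 and -2.32 ± 0.31. The EMT6 call was lost when both B16 lines were left out of the mean, where the change was 0.66.

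Itgam, which with Itgb2 forms the complement receptor of macrophages and neutrophils, stood at 274, 234 and 238 TPM in LL2 libraries, against 3.41 to 211 TPM (median 39.4) in the other 27 libraries. All 3 LL2 libraries were above every other library. Its change was 2.64 ± 0.32 in LL2 (adjusted p = 1.7e-07). MC38OVA libraries had 93.4, 211 and 209 TPM, a change of 1.94 ± 0.32, with replicate 1 far below the other two. EMT6 libraries had 126, 155 and 97.5 TPM, a change of 1.53 ± 0.32 that was 0.90 and no longer called with the B16 lines left out of the mean. Macrophage markers (6 genes) summed to 1406 to 1835 TPM in LL2 libraries and neutrophil markers (6 genes) to 1186 to 1642 TPM in EMT6 libraries, the highest line means for each. Neutrophil markers summed to 120 to 399 TPM in LL2 libraries. Macrophage markers summed to 1109 to 1694 TPM in EMT6, 939 to 1812 TPM in Renca and 1013 to 1295 TPM in CMS5a libraries. Itgam averaged 30.2 TPM in Renca and 29.7 TPM in CMS5a. The part of these markers in the Itgam levels was not tested. A predicted gene, Gm49368, overlaps Itgam exons on the same strand and reached at most 6.82 TPM.

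Itgal, the partner that serves lymphocyte adhesion to Icam1, had another order. Its level was 35.7, 64.1 and 48.4 TPM in MC38OVA libraries, against 0.919 to 32.4 TPM (median 13.7) in the other 27. No library of another line reached the lowest MC38OVA library. The change was 2.04 ± 0.31 in MC38OVA (adjusted p = 6.2e-06) and 1.17 ± 0.31 in MC38 (adjusted p = 0.0037), where the libraries held 32.4, 22.2 and 28.7 TPM. T cell markers (6 genes) were also highest in MC38OVA, at a sum of 95.3 to 131 TPM, and their part in the Itgal level was not tested. Without the B16 lines in the mean, the MC38 change was 0.61 and not called. Itgal in LL2 libraries was 20.6, 19.3 and 17.3 TPM, and it was not called there.

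The balance of both partners was tested as Itgal minus Itgam on log2(TPM + 1), 1 value a library. It was -3.67, -3.53 and -3.71 in LL2 libraries and -3.90, -2.45 and -2.35 in EMT6 libraries, while CMS5a libraries had -1.05, -1.23 and -0.64. The line means ran from -3.64 in LL2 to -0.97 in CMS5a, so Itgam exceeded Itgal in every line. The differences over lines exceeded the spread between libraries (F = 10.7, permutation p = 5e-05 with 100000 permutations of the line labels).

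**Figure D2:**
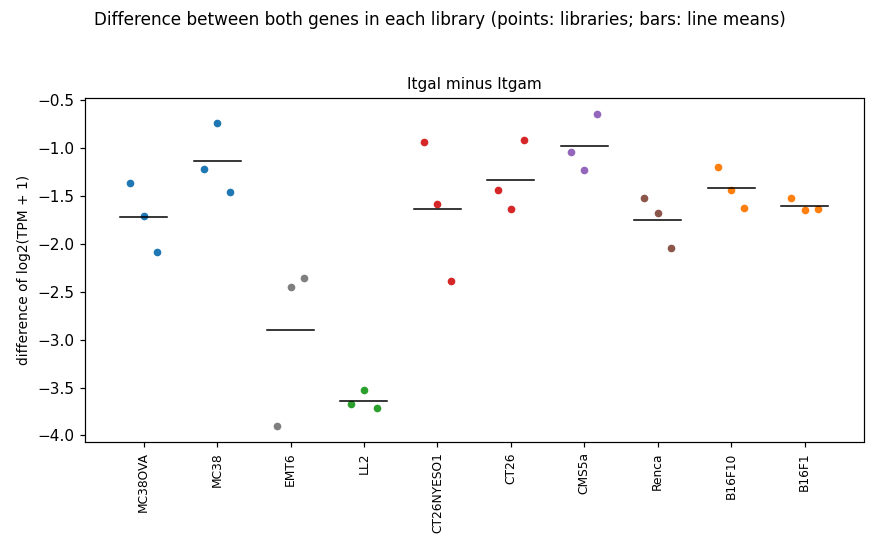
Itgal minus Itgam on log2(TPM + 1) in each of the 30 libraries (points), by line, with bars at line means; colours mark related lines. LL2 has the lowest line mean, at -3.64, and CMS5a the highest, at -0.97.

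**Figure D3:**
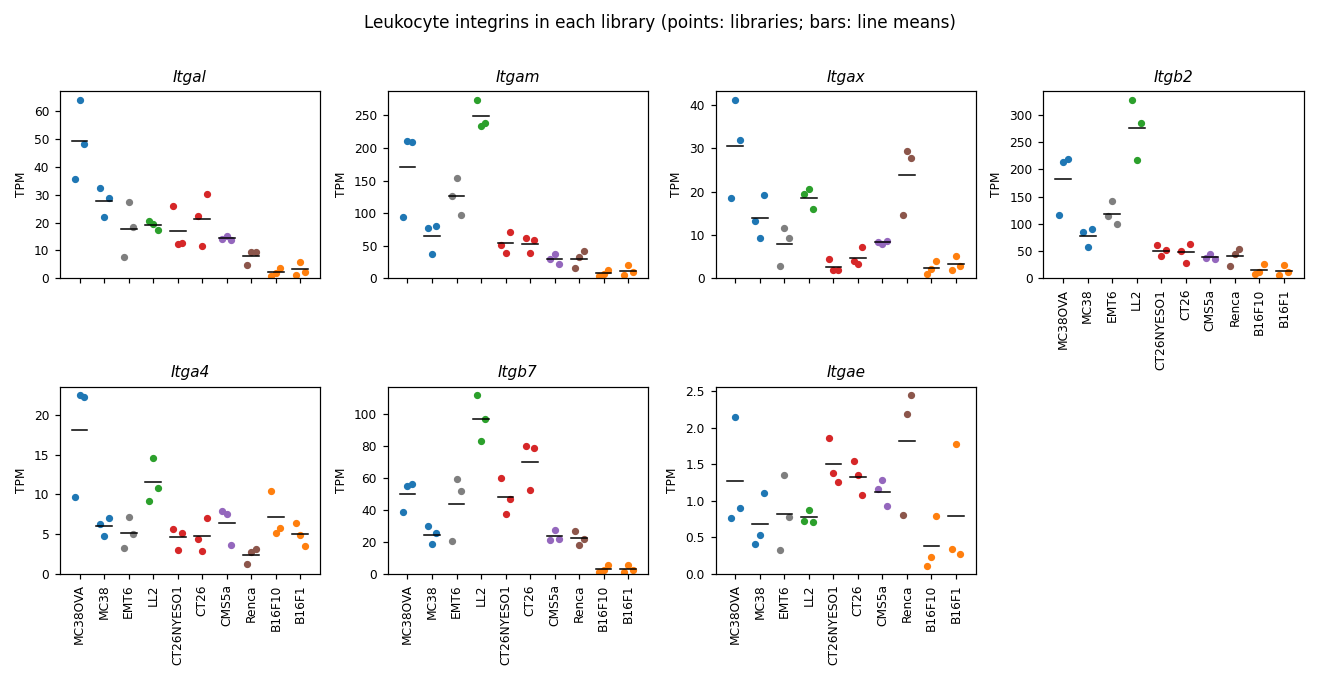
TPM of the 7 tested leukocyte integrins in each of the 30 libraries (points), by line, with bars at line means; colours mark related lines. Itgal is highest in MC38OVA, while Itgam, Itgb2 and Itgb7 are highest in LL2, and the B16F10 and B16F1 points lie near 0 for these 4 genes.

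Itgax, the subunit known as CD11c on dendritic cells and some macrophages, had 18.6, 41.2 and 31.96 TPM in MC38OVA libraries and 14.6, 29.3 and 27.7 TPM in Renca libraries, against 1.85 to 4.32 TPM in CT26NYESO1 libraries. The MC38OVA and Renca ranges overlapped. Changes were 1.93 ± 0.31 in MC38OVA, 1.56 ± 0.31 in Renca (adjusted p = 0.0001) and 1.24 ± 0.31 in LL2, the last being 0.89 and not called with the B16 lines left out of the mean. Itgax was lower in B16F10 (-1.73 ± 0.31), CT26NYESO1 (-1.51 ± 0.31, adjusted p = 0.00024) and B16F1 (-1.26 ± 0.31), the B16F1 call being lost without B16F1 replicate 1. The dendritic cell markers (5 genes) summed to 8.06 to 12.3 TPM in Renca libraries and 27.8 to 46.9 TPM in MC38OVA libraries. Only 2 of the 5 were at 1 TPM or more on average in Renca. Macrophage markers summed to 939 to 1812 TPM in Renca and 860 to 1329 TPM in MC38OVA libraries. The part of either set in the Itgax levels was not tested. Itgam in the same Renca libraries had 15.3, 32.9 and 42.3 TPM and was not called, but with the B16 lines left out of the mean its change was -1.52 (adjusted p by limma 0.00025) and called.

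Itgb7, the β subunit of gut-homing and tissue-resident lymphocytes, reached 111, 82.9 and 96.5 TPM in LL2 libraries, against 1.01 to 79.8 TPM (median 26.6) in the other 27. The LL2 libraries again lay above all others. Its change was 2.15 ± 0.28 in LL2 (adjusted p = 6.5e-07) and 1.62 ± 0.28 in CT26, where the libraries held 79.8, 52.2 and 78.4 TPM. It was also higher in MC38OVA (1.08 ± 0.28) and CT26NYESO1 (1.02 ± 0.28), and the CT26NYESO1 call was lost under median-ratio scaling and without any 1 of CT26NYESO1, B16F1, B16F10 or EMT6 replicate 1. The MC38OVA call was lost without MC38OVA replicate 3. With the B16 lines left out of the mean, the changes in CT26 (0.85), MC38OVA (0.30) and CT26NYESO1 (0.24) were not called. B16F10 libraries had 1.14 to 5.38 TPM and B16F1 libraries 1.01 to 5.55 TPM, changes of -3.16 ± 0.28 and -3.15 ± 0.28.

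Itga4, which binds Vcam1 with Itgb1, was higher in MC38OVA, at 9.70, 22.5 and 22.3 TPM against 1.15 to 14.6 TPM (median 5.14) in the other 27 libraries, a change of 1.52 ± 0.26 (adjusted p = 3.4e-05). The lowest MC38OVA library overlapped the others. It was lower in Renca, at 1.15, 2.77 and 3.13 TPM, a change of -1.24 ± 0.26 that was -0.95 and not called without Renca replicate 1. In contrast to the other leukocyte integrins called in those lines, Itga4 was not called in B16F10 (10.4, 5.14 and 5.77 TPM) or in B16F1 (6.40, 4.89 and 3.53 TPM). Itgae, the E-cadherin-binding partner of Itgb7, did not pass 2.45 TPM in any library and was called in no line in the main fit. With a pseudocount of 0.1 Itgae was called in B16F10.

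The leukocyte integrins were also read relative to a leukocyte score. This score, the mean log2(TPM + 1) of the 9 leukocyte markers in the same library, was subtracted from every gene. It may not follow leukocyte content equally in every line. The markers summed to 478 to 678 TPM in B16F10 libraries, above the 135 to 392 TPM of B16F1 libraries. The mean score was nevertheless lower in B16F10 (4.22) than in B16F1 (4.34), and Ptprc was low in both. Which markers made up the B16F10 sum was not tested. Relative changes are therefore changes against this score. In MC38OVA none of the 6 higher calls stayed, against 1.04% of all genes called higher on this scale. Their relative changes were 0.47 for Itgal, 0.37 for Itgam, 0.36 for Itgax, 0.28 for Itgb2, -0.05 for Itga4 and -0.49 for Itgb7 (adjusted p by limma from 0.116 to 0.879), and Itgae was called lower (-1.39 ± 0.27), where 80.6% of all genes were. In LL2, by contrast, Itgam (1.61 ± 0.29), Itgb2 (1.53 ± 0.29) and Itgb7 (1.13 ± 0.30) were called higher, against 1.76% of all genes, and Itgae lower (-1.19 ± 0.27), against 55.5%, while the Itgax call was lost (0.21).

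On the same scale Itgb7 was called higher in CT26 (1.63 ± 0.30) and CT26NYESO1 (1.05 ± 0.30), against 8.43% and 7.23% of all genes. Itgax was called lower in CT26NYESO1 (-1.48 ± 0.29), against 5.38%, and higher in Renca (2.02 ± 0.29), against 22.1%. Itgam was called lower in CMS5a (-1.08 ± 0.29), against 8.74%. The calls of Itgal in MC38 (0.78, with 4.43% of all genes called higher), of Itgam and Itgb2 in EMT6 (0.88 and 0.55, with 4.37%) and of Itga4 in Renca (-0.78, with 4.52% called lower) were lost. In the melanoma lines Itgb7 was called lower, by -1.37 ± 0.30 in B16F10 and -1.49 ± 0.30 in B16F1, against 2.3% and 1.42% of all genes. Itgam was also lower in B16F10 (-1.11 ± 0.29). The lower calls of Itgal (-0.68), Itgax (0.07) and Itgb2 (-0.42) in B16F10 were lost on this scale, as were those of Itgal (-0.46), Itgam (-0.69), Itgax (0.40) and Itgb2 (-0.66) in B16F1. Itga4 was higher in B16F10 (1.97 ± 0.32) and B16F1 (1.37 ± 0.32), as was Itgae (1.19 ± 0.27 and 1.40 ± 0.27), where 68.5% and 77% of all genes were.

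Among the other integrins, the 4 laminin receptor subunits are given first. Itga7, the laminin receptor subunit best known from muscle, had 148, 147 and 158 TPM in Renca libraries, against 0.0993 to 7.56 TPM (median 2.04) in the other 27. The lowest Renca library was far above every other library. The change was 5.70 ± 0.16 (adjusted p = 3.3e-21), and Itga7 made up 35.3 ± 4.43% of the summed TPM of the α subunits in Renca (SD, n = 3). It was lower in B16F10 (-2.13 ± 0.16), CT26NYESO1 (-1.78 ± 0.16), CT26 (-1.77 ± 0.16) and CMS5a (-1.55 ± 0.16), where no library passed 0.797 TPM. Mettl7b overlaps it on the opposite strand with at most 7.93 TPM.

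Itga3, a laminin receptor subunit of epithelia, was likewise highest in Renca, at 67.5, 113 and 123 TPM, against 0.136 to 56.5 TPM (median 21.6) in the other 27 libraries. Its changes were 2.73 ± 0.20 in Renca (adjusted p = 3.9e-12), 1.75 ± 0.20 in EMT6 and 1.39 ± 0.20 in CT26NYESO1, and the last was 0.68 and not called with the B16 lines left out of the mean. B16F10 libraries held 0.249, 0.136 and 0.238 TPM, below all others, a change of -4.34 ± 0.20 (adjusted p = 2.9e-16). B16F1 (3.35, 11.6 and 5.42 TPM) and MC38 (10.0, 8.45 and 7.07 TPM) were lower by -1.51 ± 0.20 and -1.04 ± 0.20, the MC38 call being lost without MC38 replicate 3 (-0.93) or B16F1 replicate 2 (-0.995) and with a pseudocount of 0.1.

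Itga6, the α partner of Itgb4 in hemidesmosomes and of Itgb1 elsewhere, reached 194, 142 and 173 TPM in CT26 libraries, against 6.81 to 140 TPM (median 26.7) in the other 27. All 3 CT26 libraries were above the others, narrowly so beside one LL2 library. Changes were 2.38 ± 0.17 in CT26 (adjusted p = 3.8e-12), 1.70 ± 0.17 in LL2 and 1.52 ± 0.17 in CT26NYESO1, against -1.60 ± 0.17 in Renca and -2.26 ± 0.17 in B16F10. Itgb4 was also highest in CT26, at 88.9, 36.9 and 51.9 TPM, against 0.427 to 29.96 TPM (median 6.96) in the other 27 libraries. CT26 replicate 1 held the most of it, and the change was 2.87 ± 0.29 (adjusted p = 3.9e-09). Itgb4 was lower in LL2 (3.30, 2.19 and 2.94 TPM; -1.47 ± 0.29), where Itga6 was high, and in B16F10 (1.11, 0.447 and 0.427 TPM; -2.81 ± 0.29). The epithelial markers summed to 10.6 to 15.7 TPM in CT26 libraries and to 8.59 to 15.3 TPM in CT26NYESO1 libraries, and their part in the Itgb4 level was not tested.

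The collagen receptor subunits were lower in level. Itga1 was higher in LL2 (8.13, 6.03 and 5.72 TPM; 1.14 ± 0.16) and Renca (4.84, 7.54 and 7.55 TPM; 1.13 ± 0.16) and lower in CT26NYESO1 (0.599 to 0.921 TPM; -1.21 ± 0.16). Itga2 was higher in EMT6 (2.50, 2.83 and 3.16 TPM; 1.08 ± 0.14), a call lost under median-ratio scaling and with the B16 lines left out of the mean, and Itga10 in CT26 (4.21, 4.17 and 3.34 TPM; 1.32 ± 0.13). Each of these ranges overlapped those of other lines.

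Among the subunits that bind the RGD motif or other ligands, Itga9, a receptor for tenascin and osteopontin, had 16.9, 11.03 and 14.8 TPM in B16F10 libraries, against 1.15 to 7.79 TPM (median 3.17) in the other 27. B16F10 stood above all other libraries, with a change of 1.84 ± 0.17 (adjusted p = 8.2e-10). Itga2b, the platelet fibrinogen receptor subunit, had 6.46, 6.61 and 6.50 TPM in EMT6 libraries, against 0.159 to 5.81 TPM in the other 27, a change of 1.18 ± 0.13 that was 0.98 and not called with the B16 lines left out of the mean. The 6 platelet and megakaryocyte markers summed to 29.0 to 76.6 TPM in EMT6 libraries, inside the range of other lines. Only 2 of them were at 1 TPM or more on average in EMT6. Gp6 was at 0 in EMT6, as in LL2, CT26NYESO1, Renca, B16F1 and B16F10. The part of these markers in the Itga2b level was not tested. Itga5, the fibronectin receptor subunit, was higher in LL2 (91.6, 76.3 and 78.6 TPM; 1.03 ± 0.15), a call lost with the B16 lines left out of the mean (0.87) and without LL2 replicate 1 (0.95). Itgav, the widespread partner of several β subunits, was called in no line in the main fit, with 21.1 to 75.3 TPM over the 30 libraries. Without B16F1 replicate 2 it was called in B16F1.

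Itgb1, the partner of most α subunits, was the most abundant member, with line means from 113 TPM in B16F1 to 601 TPM in EMT6. EMT6 libraries held 611, 595 and 596 TPM and stood above the other 27 (1.01 ± 0.18), a change at the threshold whose call was lost under median-ratio scaling, with the B16 lines left out of the mean and without any 1 of EMT6, B16F1 or Renca replicate 1, B16F10 or LL2 replicate 2, or CMS5a or MC38 replicate 3. B16F1 libraries held 74.6, 166 and 98.5 TPM and stood below the other 27 (-1.75 ± 0.18, adjusted p = 5.1e-09). Itgb5, a vitronectin receptor subunit with Itgav, had 320, 309 and 305 TPM in Renca and 257, 301 and 303 TPM in CMS5a libraries, against 2.93, 2.67 and 4.69 TPM in B16F10 libraries. No library of another line was as low as those of B16F10, where the change was -4.63 ± 0.18 (adjusted p = 1e-17), against 2.23 ± 0.18 in Renca and 2.09 ± 0.18 in CMS5a. As a share of summed β subunit TPM, Itgb5 took 43.8 ± 9.37% in Renca and 39.4 ± 4.43% in CMS5a, against 1.27 ± 0.346% in B16F10 (SD, n = 3 each).

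Itgb8 and Itgb6, whose dimers with Itgav release active TGF-β, each stood out in a single line. Itgb8 had 17.9, 20.2 and 19.3 TPM in EMT6 libraries, against 0.0312 to 3.01 TPM in the other 27, a change of 3.62 ± 0.18 (adjusted p = 1.5e-15). Itgb6 had 3.77, 3.63 and 2.77 TPM in CMS5a libraries, against at most 0.310 TPM in the other 27, a change of 2.05 ± 0.07. Since the CMS5a libraries are the 3 that reached 1 TPM, Itgb6 passed the filter only through the line where it is high, and its difference is a description. Itgb6 was listed at 0 in 13 libraries. Itgb3 was higher in LL2 (13.9, 9.40 and 9.93 TPM; 1.21 ± 0.17) and lower in CT26NYESO1 (2.21, 2.01 and 1.73 TPM; -1.02 ± 0.17), a change at the threshold that was -0.96 and not called without CT26NYESO1 replicate 3. That call was also lost without B16F10 replicate 3 or EMT6 replicate 2 and with the B16 lines left out of the mean.

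**Figure D4:**
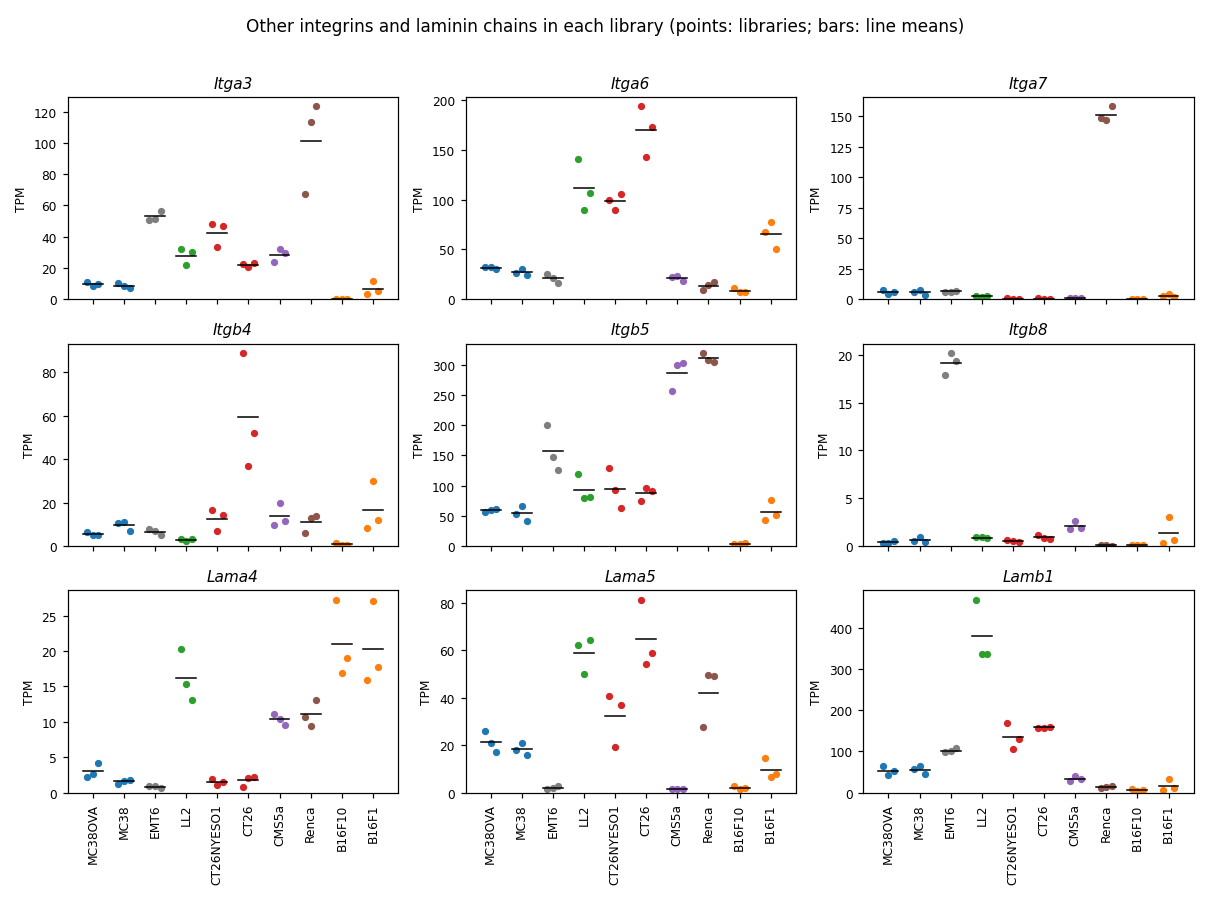
TPM of 9 integrin subunits and laminin chains in each of the 30 libraries (points), by line, with bars at line means; colours mark related lines. The Renca points for Itga7 (147 to 158 TPM), the EMT6 points for Itgb8 (17.9 to 20.2 TPM) and the LL2 points for Lamb1 (335 to 468 TPM) lie above all others.

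Of the laminin α chains, Lama5 and Lama4 were both higher in LL2 and both lower in EMT6. Neither was called in MC38OVA, and their calls differed in the remaining lines. Lama5, the α chain of most adult basement membranes, had 81.2, 54.0 and 58.6 TPM in CT26 and 62.0, 50.1 and 64.1 TPM in LL2 libraries, against 1.42, 1.60 and 1.59 TPM in CMS5a libraries. Its changes were 2.37 ± 0.21 in CT26, 2.23 ± 0.21 in LL2, 1.67 ± 0.21 in Renca and 1.23 ± 0.21 in CT26NYESO1 (0.85 and not called with the B16 lines left out of the mean), against -2.82 ± 0.21 in CMS5a, -2.59 ± 0.21 in B16F10 and -2.53 ± 0.21 in EMT6. Lama4, the α chain of endothelial and mesenchymal basement membranes, had 27.3, 16.8 and 19.0 TPM in B16F10 and 15.9, 27.1 and 17.8 TPM in B16F1 libraries, changes of 1.94 ± 0.18 and 1.87 ± 0.18. It was also higher in LL2 (20.3, 15.4 and 13.03 TPM; 1.55 ± 0.18). It was lower in EMT6 (-2.003 ± 0.181), CT26NYESO1 (-1.57 ± 0.18), MC38 (-1.47 ± 0.18) and CT26 (-1.43 ± 0.18), the last being -0.98 and not called with the B16 lines left out of the mean. As a share of summed laminin α TPM, Lama4 took 90.7 ± 0.451% in B16F10, 84.1 ± 1.38% in CMS5a and 66.8 ± 14.1% in B16F1, while Lama5 took between 66.6 ± 11.4% in EMT6 and 92.7 ± 1.63% in CT26 in the other 7 lines (SD, n = 3). The 6 endothelial markers summed to 3.07 to 4.89 TPM in B16F10 libraries, the lowest line, and to 102 to 120 TPM in CMS5a libraries; their part in the Lama4 level was not tested. Lama3, the α chain of epithelial laminin, stayed low and was higher in CT26 (3.70, 2.04 and 3.06 TPM; 1.52 ± 0.11), where no library overlapped the other 27. Lama2, the muscle chain, was called in no line in the main fit, but in EMT6, LL2 and Renca with a pseudocount of 0.1.

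Lamb1, the widespread β chain, had 468, 335 and 337 TPM in LL2 libraries, against 4.58 to 169 TPM (median 44.3) in the other 27. The LL2 libraries stood apart from all others, with a change of 3.18 ± 0.23 (adjusted p = 1.2e-11). It was also higher in CT26 (1.80 ± 0.23), CT26NYESO1 (1.53 ± 0.23) and EMT6 (1.10 ± 0.23), of which the CT26NYESO1 call was lost with the B16 lines left out of the mean (0.92) and the EMT6 call under either that setting or median-ratio scaling. Lamb1 was lower in B16F10 (8.47, 4.58 and 6.59 TPM; -3.12 ± 0.23), Renca (11.3, 13.3 and 16.1 TPM; -2.05 ± 0.23) and B16F1 (7.33, 32.7 and 10.99 TPM; -1.98 ± 0.23). Lamb2, the β chain of the neuromuscular junction and the glomerulus, was higher in Renca (43.0, 63.4 and 63.0 TPM; 1.42 ± 0.19) and CMS5a (42.6, 62.4 and 48.0 TPM; 1.26 ± 0.19). Lamb2 took 78.3 ± 1.90% of summed laminin β TPM in Renca, 59.5 ± 1.25% in CMS5a, 58.4 ± 2.72% in B16F10 and 61.1 ± 14.9% in B16F1, and Lamb1 took 72.0 ± 3.34% to 94.2 ± 0.685% in the other 6 lines (SD, n = 3). Lamb3, the epithelial β chain, was called in no line in the main fit. With a pseudocount of 0.1 it was called in MC38, MC38OVA, CT26, CT26NYESO1, Renca and B16F10. It was also called in Renca under median-ratio scaling and without Renca replicate 1.

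Lamc1, the common γ chain, was higher in LL2 (149, 112 and 114 TPM; 1.12 ± 0.22), a call lost with the B16 lines left out of the mean (0.80) and without LL2 replicate 1 (0.99). It was lower in B16F10 (28.0, 15.1 and 20.6 TPM; -1.69 ± 0.22), B16F1 (30.7, 33.6 and 29.3 TPM; -1.06 ± 0.22) and EMT6 (33.8, 33.8 and 29.3 TPM; -1.001 ± 0.221), where the EMT6 change lies at the threshold and the B16F1 call was lost under median-ratio scaling. With each of the 30 libraries left out in turn, the EMT6 change ran from -1.06 to -0.93 and lost its call in 13 fits.

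The leading α subunit also differed by line. Itgam held the highest share of summed α TPM in LL2 (41.0 ± 1.15%), MC38OVA (39.6 ± 7.73%), EMT6 (32.4 ± 4.56%) and MC38 (27.0 ± 8.001%), Itga6 in CT26 (43.8 ± 1.02%), B16F1 (38.8 ± 5.02%) and CT26NYESO1 (30.8 ± 2.51%), Itga7 in Renca (35.3 ± 4.43%) and Itgav in B16F10 (37.4 ± 2.40%). MC38 replicate 2 departed from its line, with Itgam (37.7 TPM) below Itga5 (41.2 TPM) and Itgav (39.4 TPM). In CMS5a, Itga5 (20.3 ± 2.28%) and Itgav (18.8 ± 0.857%) differed by less than their spread (SD, n = 3 throughout).

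MC38OVA was compared with MC38. By limma, 2 of 32 members were higher and 0 lower, where 1.14% of all genes were called higher and 0.167% lower; at an unadjusted p under 0.05, 9 members were higher and 0 lower. Itga9 had 5, 7.07 and 7.79 TPM in MC38OVA libraries, against 3.51, 1.35 and 3.17 TPM in MC38 libraries, without overlap, a change of 1.09 ± 0.23 (adjusted p = 0.016). Itga4 had 9.70, 22.5 and 22.3 TPM in MC38OVA libraries, against 6.28, 4.74 and 6.99 TPM in MC38 libraries, also without overlap, a change of 1.38 ± 0.35 (adjusted p = 0.039). The count was 0 without MC38 replicate 2, MC38OVA replicate 2 or MC38OVA replicate 3, and 1 without MC38 replicate 1. The leukocyte markers summed to 1137 to 2549 TPM in MC38OVA libraries and 596 to 1045 TPM in MC38 libraries, and their part in these changes was not tested.

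Between CT26NYESO1 and CT26, 0 of 32 members were higher by limma and 3 lower, where 0.379% of all genes were called higher and 1.89% lower; at an unadjusted p under 0.05, 1 members were higher and 8 lower. Itgb4 had 16.5, 6.96 and 14.3 TPM in CT26NYESO1 libraries, against 88.9, 36.9 and 51.9 TPM in CT26 libraries, without overlap, a change of -2.13 ± 0.38 (adjusted p = 0.00054). Itga2b had 2.30, 1.79 and 1.87 TPM in CT26NYESO1 libraries, against 5.81, 4.88 and 4.60 TPM in CT26 libraries (-1.03 ± 0.18, adjusted p = 0.00032). Lama5 had 40.9, 19.1 and 37.0 TPM in CT26NYESO1 libraries, against 81.2, 54.0 and 58.6 TPM in CT26 libraries (-1.02 ± 0.29, adjusted p = 0.032). These 3 genes are named because they were called, so the lack of overlap between their groups is only a description. The count of called members was 1 without CT26 replicate 1. Without CT26NYESO1 replicate 2, Itga2b (-0.98) and Lama5 (-0.70) were not called and Itga3 was (1.07). Lama5 was also not called without CT26 replicate 3 (adjusted p by limma 0.071), with a pseudocount of 0.1, without the filter or in a fit of the pair's 6 libraries, which lost Itgb4 too (adjusted p 0.065).

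Both antigen pairs were also set against each other. The change in MC38OVA over MC38 minus that in CT26NYESO1 over CT26 was called for 2 of 32 members, both positive, where 2.22% of all genes were called positive and 0.396% negative. They were Itga9 (1.30 ± 0.33, adjusted p = 0.026) and Itga2b (1.20 ± 0.25, adjusted p = 0.0051). The count was 1 without CT26 replicate 2 or 3, CT26NYESO1 replicate 2, MC38 replicate 2 or MC38OVA replicate 2 or 3, and 4 without MC38OVA replicate 1.

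In B16F10 against B16F1, 2 of 32 members were higher and 10 lower, where 4.53% of all genes were called higher and 16.4% lower. Median-ratio scaling left the counts of members at 2 and 10, while the share of higher calls over all genes was 35.0%, against 21.7% with TPM as deposited. Lower members were mostly laminin receptors and laminin chains. Itgb5 had 2.93, 2.67 and 4.69 TPM in B16F10 libraries, against 42.7, 76.5 and 51.7 TPM in B16F1 libraries (-3.69 ± 0.24, adjusted p = 1.8e-12). Itgb4 had 1.11, 0.447 and 0.427 TPM in B16F10 libraries, against 8.29, 29.96 and 11.8 TPM in B16F1 libraries (-3.24 ± 0.38, adjusted p = 1.1e-07). Its partner Itga6 had 11.3, 6.81 and 7.57 TPM in B16F10 libraries, against 67.7, 77.5 and 50.7 TPM in B16F1 libraries (-2.80 ± 0.22, adjusted p = 7.4e-11). These 3 genes are named for the largest falls, so their lack of overlap between the sublines is only a description. Itga3 (-2.55 ± 0.27), Lama5 (-1.77 ± 0.29), Itga7 (-1.73 ± 0.22), Itga2b (-1.43 ± 0.18), Lamb2 (-1.25 ± 0.26) and Lamb1 (-1.02 ± 0.31) were also lower, and the Lamb1 call was lost under median-ratio scaling, in a fit of the pair's 6 libraries and without replicate 2 of either line. Itga9 was higher, with 16.9, 11.03 and 14.8 TPM in B16F10 libraries against 2.06, 1.48 and 1.94 TPM in B16F1 libraries (2.42 ± 0.23, adjusted p = 3.3e-09), and so was Itgb1, with 284, 204 and 238 TPM against 74.6, 166 and 98.5 TPM (1.16 ± 0.24). The Itgb1 change was 0.90 and not called without B16F1 replicate 1, and its call was also lost in a fit of the pair's 6 libraries.

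**Figure D5:**
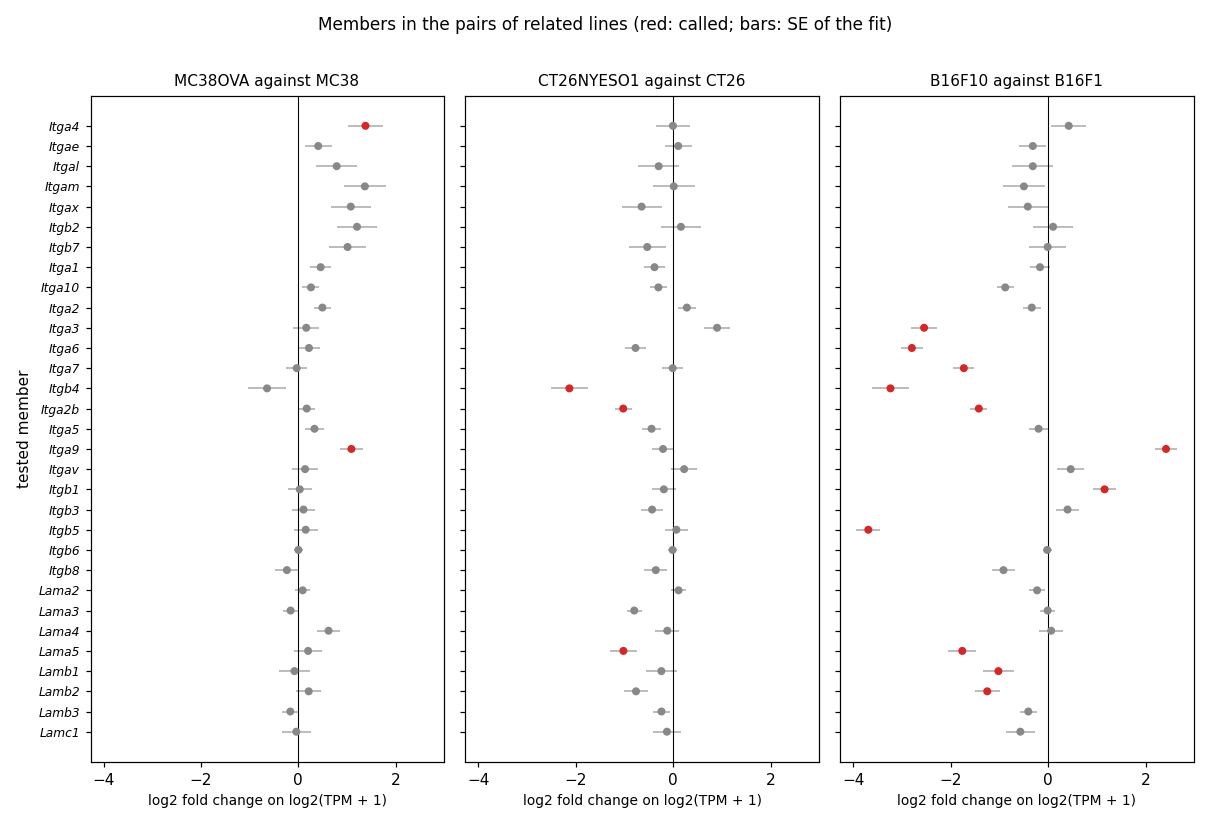
Log2 fold change, on log2(TPM + 1), of tested members in each pair of related lines, with bars at the SE of the fit and called changes in red. MC38OVA against MC38 has 2 called members and CT26NYESO1 against CT26 has 3, while in B16F10 against B16F1 Itgb5 lies lowest at -3.69 and Itga9 highest at 2.42.

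The genes around the integrins and laminins also differed over the lines, as all tested genes of the 4 related lists did (21 for activation and linkage to the cytoskeleton, 18 ligands, 12 basement membrane partners and 8 hemidesmosome or other laminin receptor genes), beside 85.5% of all genes. In LL2, 5 of 12 basement membrane partners were higher, against 7.98% of all genes, while in B16F10 1 was higher and 10 lower, against 5.28% and 23.2%. Nid1, which links laminin to collagen IV, averaged 349 ± 47.6 TPM in LL2 (5.48 ± 0.22 SE) and 0.893 ± 0.170 TPM in EMT6 (-2.88 ± 0.22). Col18a1 averaged 332 ± 51.0 TPM in LL2 (3.35 ± 0.23) and 0.948 ± 0.413 TPM in B16F10 (-4.91 ± 0.23). The collagen IV chain Col4a1 averaged 111 ± 17.1 TPM in LL2 and 2.80 ± 0.9997 TPM in EMT6, and the chain Col4a5 averaged 34.5 ± 3.43 TPM in CT26 and 0.151 ± 0.103 TPM in Renca (SD, n = 3 each).

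Among ligands, B16F10 had 2 of 18 higher and 11 lower, against 5.28% and 23.2% of all genes, and B16F1 had 3 higher and 10 lower, against 8.52% and 13.2%. Spp1, which encodes osteopontin, averaged 73.4 ± 26.5 TPM in B16F10 (-5.35 ± 0.31) and 5617 ± 370 TPM in CT26. Fbln5 averaged 129 ± 27.8 TPM in B16F10, against 0.233 ± 0.0972 TPM in B16F1 (6.70 ± 0.24, adjusted p = 2.9e-18). Tnc, the tenascin ligand of Itga9, averaged 93.4 ± 20.8 TPM in Renca and 0.557 ± 0.0366 TPM in B16F10. Ltbp1, which holds latent TGF-β, averaged 174 ± 26.7 TPM in CT26 and 0.481 ± 0.199 TPM in B16F1 (SD, n = 3 each).

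Of the activation and linkage genes, 2 of 21 were higher and 10 lower in B16F10, against 5.28% and 23.2% of all genes, and 6 were higher and 1 lower in EMT6, against 10.2% and 4.7%. Lims2 averaged 46.9 ± 7.29 TPM in Renca and 0.381 ± 0.130 TPM in CT26NYESO1. Rasgrp2, an activator of Rap1 in platelets and lymphocytes, averaged 63.7 ± 6.07 TPM in Renca (3.61 ± 0.20), and Rasgrp3 averaged 42.6 ± 13.4 TPM in B16F10 (3.85 ± 0.28). Apbb1ip, which links Rap1 to talin in leukocytes, averaged 60.7 ± 5.32 TPM in LL2 and 4.43 ± 1.32 TPM in B16F10. Among laminin receptors other than integrins, Sdc1 averaged 530 ± 26.6 TPM in Renca (2.84 ± 0.17), Sdc4 308 ± 31.0 TPM in EMT6 (1.38 ± 0.16) and Bcam, a receptor for Lama5, 8.82 ± 3.60 TPM in MC38OVA (2.23 ± 0.17). Plec, the hemidesmosome linker of Itgb4, averaged 122 ± 27.3 TPM in CT26 (1.998 ± 0.204), the line with the most Itgb4 (SD, n = 3 each; changes with SE).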

How the data were processed

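RNA-seq of 30 libraries was analysed from 1 table of TPM. The authors deposited TPM per gene symbol; per the submitters' processing notes the tools were Trim Galore 0.6.5, STAR 2.7.3a and StringTie 2.1.2 with mm10, and per the labels' protocols the libraries were stranded mRNA libraries. The annotation and the strand setting are not given in the sources used here, so reads of overlapping genes may not be separable. TPM keeps no depth, so the depth is unknown and no counting interval is given.

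The 17944 genes that reached 1 TPM in 3 or more libraries were fitted with limma 3.58.1 (R 4.3.3, variance trend) on log2(TPM + 1), with line means over all 30 libraries and Benjamini-Hochberg adjustment within each comparison. Called means adjusted p under 0.05 and a change of at least 1. Line contrasts share libraries, as each mean of 9 lines holds the other lines. Itgal minus Itgam was tested by 100000 permutations of line labels. The procedure was tested on simulated data. Gene positions and exon overlaps came from an mm10 annotation.

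The members, lists and tests were chosen with earlier results of these data known. Values per library are given for the 12 tested members with the widest range of line means and all leukocyte integrins tested; for each line and pair up to 4 rises and 3 falls are named, and for each related list up to 4 genes; the other members are also named, except 1 that is counted but not reported here. Alternatives were another pseudocount, no filter, no fold threshold, median-ratio scaling, a replicate block, leaving out libraries or lines, and subtraction of a leukocyte score.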

Additional observations from a re-analysis of the deposited data

Results flagged for a closer look

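For 2 members the change between an antigen line and its parental line differed between MC38 and CT26, by limma's test of that difference. Itga2b differed by 1.20 (log2, MC38OVA over MC38 minus CT26NYESO1 over CT26, adjusted p = 0.0051), with 2.58, 1.92 and 3.16 TPM in MC38OVA and 1.95, 2.85 and 1.68 TPM in MC38 libraries, and 2.30, 1.79 and 1.87 TPM in CT26NYESO1 and 5.81, 4.88 and 4.60 TPM in CT26 libraries. Itga9 differed by 1.30 (adjusted p = 0.026), with 1.77, 1.15 and 2.27 TPM in CT26NYESO1 and 1.69, 2.74 and 2.01 TPM in CT26 libraries, while its MC38OVA libraries lay above its MC38 libraries. With each of the 30 libraries left out in turn, the Itga9 difference lost its call in 6 of the 30 fits and the Itga2b difference in 0.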

How the results depend on the processing

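Counts of members in this section have no share of all genes under the same setting beside them. They show only how the number of calls moved. Leaving out the fold threshold raised the number of called members to 15 in MC38, 17 in MC38OVA, 22 in EMT6, 23 in LL2, 18 in CT26, 18 in CT26NYESO1, 16 in CMS5a, 22 in Renca, 21 in B16F1, 29 in B16F10 and 7 in CT26NYESO1 against CT26. A pseudocount of 0.1 gave 7 in MC38, 11 in MC38OVA, 10 in CMS5a and 0 in MC38OVA against MC38. Without the filter, MC38OVA against MC38 had 1. Median-ratio scaling gave 5 in the difference between the antigen pairs; it moved the all-gene median by -0.13 in EMT6, -0.12 in CMS5a, -0.11 in MC38, -0.10 in CT26NYESO1, 0.13 in B16F1, 0.26 in B16F10 and 0.16 in B16F10 against B16F1, and no called member changed direction. With both B16 lines left out of the mean, EMT6 had 6, CT26NYESO1 5, CMS5a 11 and Renca 17. Fitting a pair on its own 6 libraries gave 0 for MC38OVA against MC38 and 1 for CT26NYESO1 against CT26. Leaving out each library in turn gave 0 to 3 for MC38OVA against MC38, 1 to 4 for CT26NYESO1 against CT26 and 1 to 4 for the difference. With the replicate number as a block, MC38OVA against MC38 had 1 called member. Samples with the same number did not deviate together on average (mean correlation 0.0043, from -0.47 to 0.42). A mean over all lines cannot show whether some lines shared a batch. Subtracting the leukocyte score turned the sign of 10 of 102 calls in single lines, Itga4 and Itgb7 in MC38OVA among them, and none of the 10 was called on that scale; no other alternative turned the sign of a called member. With related lines averaged, F was 17.3 for Itgal minus Itgam. The cause of these moves was not tested. With 3 libraries a line and TPM only, small changes of low genes such as Itgae or Lama2 are limited by the spread between libraries.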
